A study of Rattus norvegicus with 12 samples.

Results

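Titin (Ttn), the 3 myomesins (Myom1, Myom2 and Myom3), obscurin-like 1 (Obsl1) and Nrap were followed through sham-operated, infarcted and urolithin A treated rat hearts. They are 6 of the 30560 genes in the count table and were taken by gene name. Myom3 was in addition selected on its own values, lower after infarction and higher with treatment, so its differences between the groups are given as a description with no test. The other 5 were taken by name, with earlier results of these data known.

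The hearts came from male Wistar rats operated at 7 weeks of age, and each of the 12 libraries is 1 rat. The 4 Sham rats (12, 17, 32 and 38) had the chest opened without a ligature and received vehicle. The 4 MI rats (36, 57, 61 and 89) had the left anterior descending coronary artery tied and received vehicle, and the 4 MI + UA rats (29, 58, 64 and 66) had the same ligation and received urolithin A, a metabolite that gut bacteria make from ellagitannins. Vehicle and urolithin A were given by daily gavage for 8 weeks. The study's text gives the dose and the first day of treatment in different ways, so neither is stated here. RNA came from fixed, paraffin-embedded sections of the middle left ventricle. Rat 66 is labelled MI + UA, while a supplementary list of heart measurements sets it with the vehicle-treated infarcted rats, so some differences, among them those of Ttn and Myom3 in MI + UA versus MI, are also given with rat 66 counted in MI.

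The M-band is the line of protein cross-links in the middle of the sarcomere that holds the myosin filaments in register. Titin, the giant elastic protein, reaches from the Z-disc to the M-band, where its end is bound by the myomesins and by obscurin-like 1. Myom1 is the myomesin found in all striated muscle, Myom2 (M-protein) belongs to the adult heart and fast muscle fibres, and Myom3 is best known from a subset of skeletal muscle fibres. Nrap is a nebulin-related protein of the intercalated disc and of growing myofibrils, and is not an M-band protein.

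Promoter sequences, from 250 bases before to 50 after the start site, matched 4 of the 6 genes (Ttn, Myom1, Myom3 and Obsl1). They come from RefSeq on build GRCr8, which differs from the build on which reads were counted, mRatBN7.2. The promoters of Ttn and Myom3 are shown because they belong to the member with the most reads and to the member with the widest range between groups. Each holds 1 match to the 10-letter MEF2 consensus, in capitals, the motif of a family of muscle transcription factors. The first is chr3:82332061-82332360, minus strand, and the second is chr5:153276056-153276355, plus strand; both are written 5′ to 3′ along the gene.
Ttn: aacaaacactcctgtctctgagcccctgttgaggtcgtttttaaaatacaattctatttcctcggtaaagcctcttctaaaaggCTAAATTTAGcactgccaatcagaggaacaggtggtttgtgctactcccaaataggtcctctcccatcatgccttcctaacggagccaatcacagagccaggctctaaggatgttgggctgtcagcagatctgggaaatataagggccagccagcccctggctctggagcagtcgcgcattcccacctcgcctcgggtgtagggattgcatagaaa
Myom3: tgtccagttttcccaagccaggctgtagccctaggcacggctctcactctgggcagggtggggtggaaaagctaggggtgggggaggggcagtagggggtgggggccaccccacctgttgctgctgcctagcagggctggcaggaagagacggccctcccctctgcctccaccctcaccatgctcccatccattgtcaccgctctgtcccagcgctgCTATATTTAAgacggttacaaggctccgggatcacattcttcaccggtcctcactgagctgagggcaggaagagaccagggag
The match began 166 bases before the start site in Ttn and 33 bases before it in Myom3. Searched on both strands, the MEF2 consensus was present in 3.29% of all 33469 promoters of this length, and was not found in the windows of Myom1 and Obsl1. The M-CAT motif (CATTCC) stood once in Ttn, after the start site, and in 14.2% of all promoters. No CArG box was found in the 4 windows (1.64% of all promoters), while an E-box (CANNTG, 72.1% of all promoters) was found in each. These are letter matches only and carry no measurement of binding.

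Between 6228706 and 19031695 reads per library were assigned to genes, and rat 66 was the deepest. Reads assigned to genes made up 46.9% to 48.3% of counted reads in Sham, 43.3% to 44.8% in MI and 42.9% to 47.2% in MI + UA, so this share was lower in every MI library than in every Sham library. Its part in the differences described here was not tested. The 13 proteins encoded by mitochondrial DNA took 50.2% to 58.6% of the gene reads. Levels are given as CPM, counts per 1000000 gene reads scaled by the trimmed mean of M-values (TMM), and are not compared between genes, because transcript lengths were not used.

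Titin, Myom1 and Obsl1 were lower in MI than in Sham hearts, each at about the same proportion of the Sham level, and Myom3 had the largest difference of the 6. In the edgeR quasi-likelihood test over 18182 genes, 3 of the 5 tested members had an adjusted p under 0.05, each lower. The background for lower calls in this comparison was 5.53% of all genes tested. In these 3 (Ttn, Myom1 and Obsl1) every MI rat lay below every Sham rat, beside 7.56% of all genes. The median log2 fold change of the 5 was -0.39, beside 0.03 over all genes.

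Ttn was at 36266, 33050, 35562 and 36411 CPM in Sham rats 12, 17, 32 and 38. It was at 27057, 28677, 23031 and 24796 CPM in MI rats 36, 57, 61 and 89, and at 27217, 24840, 24013 and 33422 CPM in MI + UA rats 29, 58, 64 and 66. The 4 MI rats were all below the 4 Sham rats, and rat 66 was the only treated rat within the Sham range. With rat 66 counted in MI, the MI group would overlap Sham and the MI + UA group would not. The fitted log2 fold change in MI versus Sham was -0.45 (SE 0.10, adjusted p = 0.00531), or 73.3% of the Sham level. This single gene took 3.00% to 3.45% of the gene reads in Sham, 2.62% to 2.90% in MI and 2.51% to 3.12% in MI + UA.

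Myom1 was at 406, 384, 397 and 431 CPM in the Sham rats, in the same order. It was at 327, 331, 283 and 296 CPM in the MI rats and at 309, 274, 284 and 353 CPM in the MI + UA rats. Neither infarcted group overlapped Sham, and rat 66 again stood highest among the treated rats. The log2 fold change in MI versus Sham was -0.39 (SE 0.09, adjusted p = 0.00520), or 76.5% of the Sham level.

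Obsl1 was at 36.6, 39.1, 35.5 and 42.8 CPM in Sham, at 33.1, 27.8, 27.6 and 25.9 CPM in MI, and at 30.3, 26.5, 30.2 and 29.9 CPM in MI + UA. Both infarcted groups lay below Sham without overlap, and here rat 66 was in the middle of its group. The log2 fold change in MI versus Sham was -0.43 (SE 0.10, adjusted p = 0.00639), or 74.3% of the Sham level. Obsl1 was counted in 177 to 531 reads per library.

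Myom2 was at 760, 951, 1073 and 1117 CPM in Sham, at 810, 942, 752 and 821 CPM in MI, and at 666, 630, 977 and 921 CPM in MI + UA. The 3 groups overlapped, and Sham rat 12 lay well below the other 3 Sham rats. The log2 fold change in MI versus Sham was -0.23 (SE 0.13, 95% interval -0.51 to 0.05, adjusted p = 0.317), so Myom2 did not pass the test.

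Nrap was at 406, 329, 347 and 369 CPM in Sham, at 310, 342, 282 and 296 CPM in MI, and at 311, 249, 284 and 314 CPM in MI + UA. Sham and MI overlapped through MI rat 57, whereas the treated rats all lay below Sham. Its log2 fold change in MI versus Sham was -0.24 (SE 0.09, adjusted p = 0.104) and did not pass the test. In rat 12, Nrap and Myom1 have the same count, 3234 reads.

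**Figure D1:**
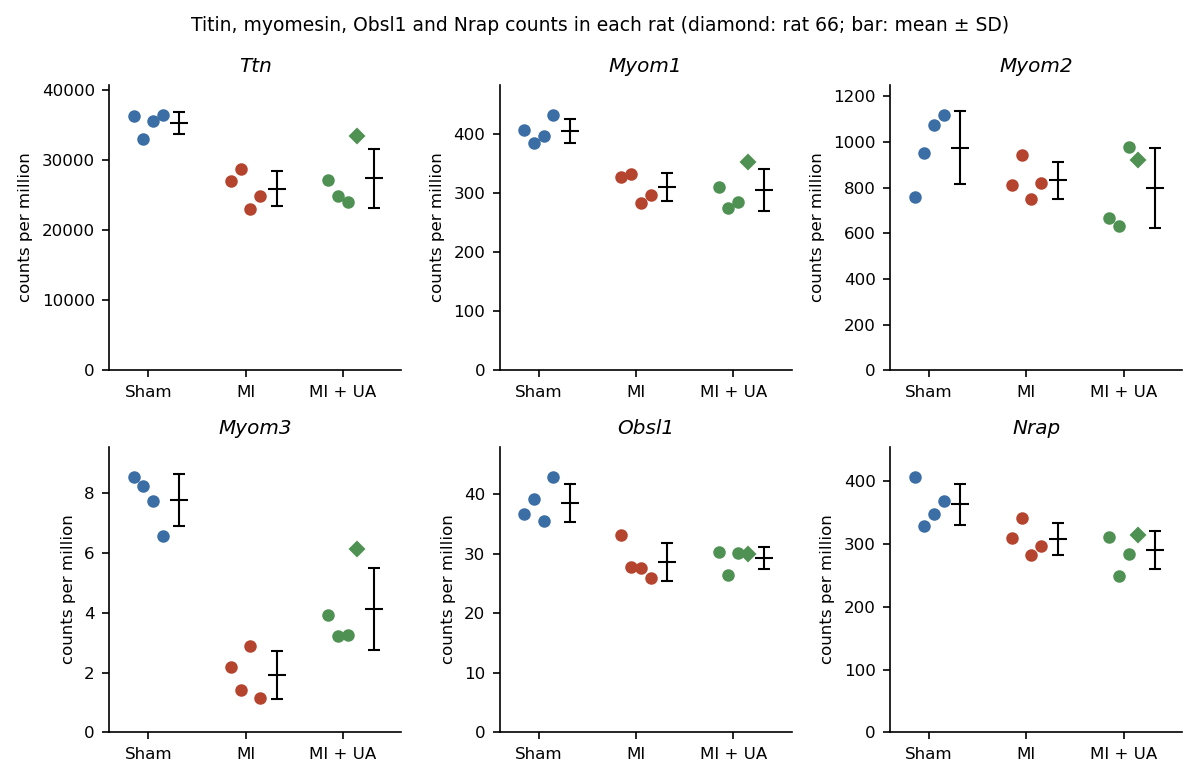
CPM of the 6 genes (vertical axes, from 0) in each rat of the Sham, MI and MI + UA groups, with the mean and SD of 4 rats beside the points and rat 66 as a diamond. Every MI point lies below every Sham point for Ttn, Myom1, Myom3 and Obsl1, while MI and Sham overlap for Myom2 and Nrap.

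Myom3 had the fewest reads of the 6, with 46 to 68 counted in each Sham library, 9 to 30 in each MI library and 24 to 109 in each MI + UA library. It was at 8.53, 8.23, 7.74 and 6.56 CPM in Sham and at 2.19, 1.41, 2.91 and 1.14 CPM in MI. In MI + UA it was at 3.94, 3.21, 3.25 and 6.13 CPM. The 3 groups did not overlap, with MI lowest, Sham highest and MI + UA between them, and rat 66 came closest to the Sham range. The mean was 7.76 ± 0.868 CPM in Sham, 1.91 ± 0.799 in MI and 4.13 ± 1.37 in MI + UA (SD, n = 4 each).

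The fitted log2 fold change of Myom3 was -2.001 (SE 0.27) in MI versus Sham, 24.99% of the Sham level. It was 1.14 (SE 0.27) in MI + UA versus MI, a 2.21-fold difference, and -0.86 (SE 0.24) in MI + UA versus Sham. These are the values on which Myom3 was chosen, and no test is attached to them.

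The distance between the infarcted groups was narrow for single rats. MI rat 61, with 28 reads, was at 2.91 CPM with an exact Poisson 95% interval of 1.93 to 4.20. MI + UA rat 58, with 25 reads, was at 3.21 CPM with an interval of 2.08 to 4.74. These intervals cover counting error only, and for this pair they overlap over most of their length. Without rat 66 the log2 fold change of Myom3 in MI + UA versus MI was 0.87, and with rat 66 counted in MI it was 0.26. The latter setting also moved MI versus Sham from -2.001 to -1.39.

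**Figure D2:**
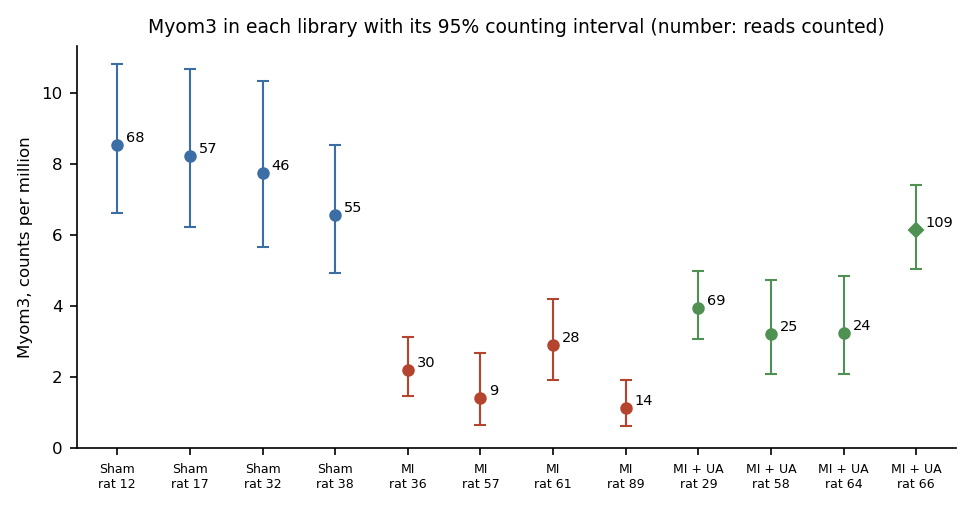
Myom3 in CPM (vertical axis) in each of the 12 libraries, with the exact Poisson 95% interval and the number of reads beside each point. Rat 66, the diamond with 109 reads, lies above the other 3 treated rats, and the intervals of MI rat 61 and of MI + UA rats 58 and 64 overlap.

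Urolithin A treatment was compared with vehicle among the infarcted rats. None of the 5 tested members passed the edgeR test, and none had an unadjusted p under 0.05; DESeq2 called 0 of the 5. Over all genes edgeR called 0 (0% of 18182) and DESeq2 called 0, while 3.79% of genes had an unadjusted edgeR p under 0.05. The log2 fold change was 0.08 for Ttn (95% interval -0.13 to 0.29) and -0.02 for Myom1 (-0.20 to 0.16). It was -0.06 for Myom2 (-0.33 to 0.22), 0.03 for Obsl1 (-0.17 to 0.23) and -0.08 for Nrap (-0.28 to 0.11). The adjusted p was 0.9997 for each of the 5. With rat 66 counted in MI the difference of Ttn turned from 0.08 to -0.11, and without rat 66 it was -0.03.

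Treated infarcted hearts were also compared with Sham, which shares its libraries with the other comparisons. Of the 5 tested members 4 passed the edgeR test, each lower, beside 4.27% of all genes called lower. The log2 fold change was -0.37 for Ttn (SE 0.10, adjusted p = 0.0237) and -0.41 for Myom1 (SE 0.09, adjusted p = 0.00449). It was -0.40 for Obsl1 (SE 0.10, adjusted p = 0.0123) and -0.32 for Nrap (SE 0.09, adjusted p = 0.0278). Myom2, at -0.29 (SE 0.13, adjusted p = 0.206), did not pass. Of the same 5, Myom1, Obsl1 and Nrap did not overlap Sham, beside 6.46% of all genes. The count of 4 that passed fell to 2 without Sham rat 12, MI + UA rat 58 or MI + UA rat 64, and to 1, Myom1, without Sham rat 38. Ttn lost its call in 6 of the 12 fits that leave out a rat (rats 12, 32, 38, 29, 58 and 64). Nrap lost it in 4 of these fits (rats 12, 38, 58 and 64, adjusted p up to 0.0973) and Obsl1 in 1 (rat 38, adjusted p = 0.0595).

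**Figure D3:**
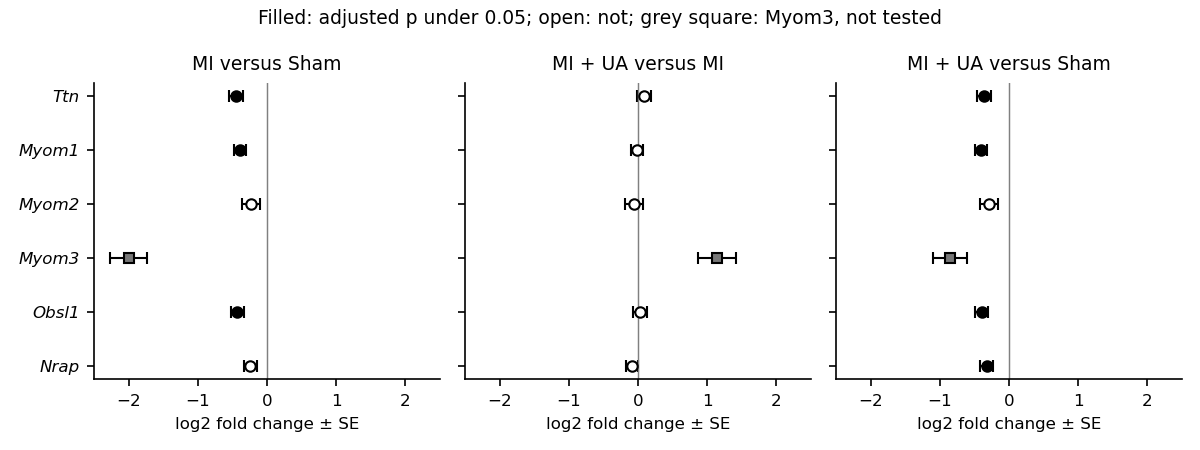
Log2 fold changes with their standard errors (horizontal axes) of the 6 genes in the 3 comparisons; filled points passed the edgeR test at an adjusted p under 0.05, open points did not, and the grey square is Myom3, which was not tested. Ttn, Myom1 and Obsl1 lie between -0.45 and -0.37 in both comparisons with Sham, and only the square lies away from 0 in MI + UA versus MI.

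Markers of cardiomyocytes moved in the same direction as the members. The summed level of 17 cardiomyocyte markers was 26265 to 30882 CPM in Sham, 19210 to 20584 in MI and 19326 to 23200 in MI + UA, with rat 66 highest of the treated rats. In MI versus Sham 12 of the 17 passed the test, each lower, with a median log2 fold change of -0.41. Fibroblast markers went from 1923 to 2266 CPM in Sham to 3181 to 5181 in MI and 3250 to 5199 in MI + UA, with 10 of 12 passing the edgeR test as higher in MI versus Sham. Macrophage markers went from 132 to 165 CPM to 265 to 423 and 224 to 454, with 9 of 10 passing as higher. Of the endothelial markers 1 of 8 passed as lower, and of the smooth muscle markers 3 of 6 passed as higher. In these bulk sections fewer cardiomyocytes and less RNA per cardiomyocyte cannot be told apart, and the part of the marker shifts in the members' differences was not tested.

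Skeletal muscle markers, relevant to Myom3, summed to 44.3 to 64.7 CPM in Sham, 42.8 to 61.6 in MI and 34.5 to 61.4 in MI + UA, so these ranges overlapped. The fast myosin Myh2 had 21 reads over all 12 libraries, Myh4 had 6 and Myh8 had 0. Most of the sum came from Casq1 with 4058 reads, Tnnt3 with 1454 and Mybpc2 with 598. Of the 8 skeletal markers tested, 0 passed as lower and 1 passed as higher in MI versus Sham by the edgeR test. Atrial markers summed to 112 to 143 CPM in Sham, 174 to 194 in MI and 166 to 196 in MI + UA. Most of this sum came from Dkk3 with 13547 reads, while Myl7 had 455, Myl4 had 135 and Sln had 39. Of the 8 atrial markers tested, 1 passed as lower and 3 passed as higher in MI versus Sham by the edgeR test.

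Set against the summed cardiomyocyte markers of the same library, none of the 5 tested members passed a test. The log2 ratio in MI versus Sham was 0.07 for Ttn, 0.13 for Myom1 and 0.09 for Obsl1, opposite in sign to their differences in CPM. It was 0.30 for Myom2 and 0.28 for Nrap. None of the 15 ratios (5 genes in 3 comparisons) had an adjusted p under 0.05 in a two-sided exact permutation test. The unadjusted p was 0.0286, the smallest that 70 groupings of 4 against 4 rats allow, for Myom2 in MI versus Sham and for Nrap in MI + UA versus MI. Such a p in a single ratio could not pass the adjustment over 15 tests.

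Myh6, the marker with the most reads over the 12 libraries, made up 17.8% to 22.7% of the marker counts in Sham and 11.8% to 16.4% in MI, and it fell more than any of the 5 tested members. With Myh6 left out of the sum, the log2 ratio in MI versus Sham was -0.05 for Ttn, 0.01 for Myom1 and -0.03 for Obsl1, and no unadjusted p was under 0.05. The scale without Myh6 was chosen after the data were seen. Myom3 was lower in MI than in Sham on either scale, at -1.56 with all markers and -1.68 without Myh6, again as a description. In MI + UA versus MI its log2 ratio was 1.04 with all markers and 1.09 without Myh6, and with rat 66 counted in MI these fell to 0.59 and 0.62 and the MI range would overlap both others.

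**Figure D4:**
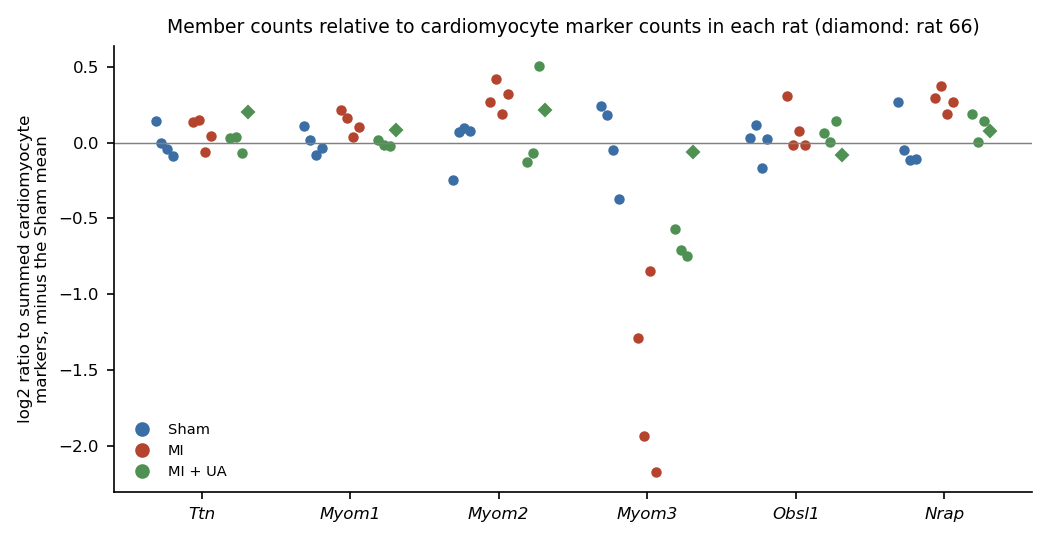
Log2 ratio of each gene's counts to the summed cardiomyocyte marker counts of the same library, with the Sham mean set to 0 (vertical axis), for each rat; rat 66 is a diamond. All 4 MI points of Myom3, which was selected for being lower in MI, lie below the Sham points. All 4 of Myom2 lie above the Sham points, and those of Ttn, Myom1, Obsl1 and Nrap overlap them.

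The balance among the members was compared within libraries as the log2 ratio of each to Myom1. For Ttn this was 6.45 ± 0.0423 in Sham, 6.39 ± 0.0375 in MI and 6.48 ± 0.0698 in MI + UA (SD, n = 4 each), a narrow range over rats of all groups. For Myom2 it was 1.26 ± 0.239 in Sham and 1.42 ± 0.0874 in MI. For Nrap it was -0.16 ± 0.108 in Sham and -0.01 ± 0.0513 in MI. Obsl1 had -3.39 ± 0.0946 in Sham and -3.44 ± 0.128 in MI. These ratios hold unequal transcript lengths, so only their differences between groups can be read.

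Of the 12 tests of these 4 ratios in 3 comparisons, 0 passed an adjusted p of 0.05 and 0 had an unadjusted p under 0.05 in the exact permutation test. The lowest was Ttn in MI + UA versus MI, higher by 0.10 with the treated rat above the MI rat in 15 of 16 pairings (exact permutation p = 0.0571, adjusted p = 0.343). With rat 66 counted in MI this difference was 0.03. The smallest p that the test allows, 0.0286, could not pass the adjustment over 12 tests in a single ratio. The log2 ratio of Myom3 to Myom1 ran from -6.03 to -5.53 in Sham, from -7.97 to -6.58 in MI and from -6.42 to -5.84 in MI + UA. The MI range was apart from both others, and rat 66 alone of the treated rats lay within the Sham range. With rat 66 counted in MI, the MI range would reach -5.84 and overlap both others, and the difference in MI + UA versus MI would fall from 1.15 to 0.71.

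Across the 12 rats the members varied together to unequal degrees, as a description over libraries that differ in group and depth. Pearson's r of log2 CPM between Ttn and Myom1 was 0.97, and 0.95 after the group means were removed. Between Myom1 and Nrap the values were 0.89 and 0.77, and between Myom1 and Obsl1 they were 0.88 and 0.51. Myom3 and Ttn had 0.75 over the 12 rats and 0.26 after the group means were removed. Myom2 had its highest r among the members with Myom1, at 0.61.

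Other genes of titin's and the M-band's neighbourhood were followed in 6 lists of 48 genes, of which 44 were tested. Some of them, among these Ckm, Actn2 and Myh6, are also cardiomyocyte markers, so the counts of lists and markers share genes. In MI versus Sham 16 of the 44 were lower and 3 were higher at an adjusted p under 0.05, beside 5.53% and 5.82% of all genes. The median log2 fold change was -0.26, beside 0.03 over all genes. In MI + UA versus MI 0 of the 44 passed the edgeR test, and 3 had an unadjusted p under 0.05, beside 0% and 3.79% of all genes. In MI + UA versus Sham 16 were lower and 1 was higher, beside 4.27% and 5.16% of all genes. The counts lower and higher in each list are of genes that passed this test.

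The partners of titin's M-band end had 7 of 11 lower in MI versus Sham and none higher. Ckm, the muscle creatine kinase that is bound at the M-band, fell most in this list, by 0.68 on the log2 scale (SE 0.08, adjusted p = 2.23e-05). The ubiquitin ligases Trim63, Trim55 and Trim54 did not pass, with log2 fold changes of -0.31, -0.12 and -0.26.

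The partners of titin's spring region in the I-band had 0 of 6 lower and 1 higher. Ankrd23, an ankyrin repeat protein that binds titin there, rose by 1.04 on the log2 scale (SE 0.23, adjusted p = 0.00408). At the Z-disc end 3 of 7 were lower and none was higher. Actn2, the alpha-actinin that anchors titin and thin filaments, fell by 0.43 (SE 0.08, adjusted p = 0.00207).

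In the thick filament list 4 of 6 were lower and 1 was higher. Myh6, the fast cardiac myosin heavy chain, fell by 1.08 (SE 0.11, adjusted p = 1.98e-06). Myh7, the slow cardiac myosin heavy chain, rose by 0.69 (SE 0.21, adjusted p = 0.0350), but its call was lost with DESeq2 (adjusted p = 0.110), with rat 66 counted in MI (adjusted p = 0.0521) and in 6 of the 12 fits that leave out a rat (rats 12, 32, 38, 36, 57 and 89). Myh6 was at 5864 ± 812 CPM in Sham, 2772 ± 306 in MI and 3626 ± 413 in MI + UA. In MI + UA versus MI its log2 fold change was 0.39 (edgeR adjusted p = 0.9997) and did not pass the test.

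Among the splicing regulators of titin and the myomesins 1 of 7 was lower and none was higher. Rbfox1, a splicing factor of heart and nerve, fell by 0.68 (SE 0.12, adjusted p = 0.000849). Rbm20, the main regulator of titin splicing, had a log2 fold change of -0.29 (SE 0.11, adjusted p = 0.0891). Gene-level counts hold no information on which titin isoform was made. In the list of myosin folding and myofibril assembly Unc45b, a myosin chaperone, fell by 0.57 (SE 0.13, adjusted p = 0.00615). Xirp2, an actin-binding protein of the intercalated disc, rose by 0.53 (SE 0.14, adjusted p = 0.0191), a call that was lost without Sham rat 12, Sham rat 17 or MI rat 57. Trim63, Trim55, Trim54 and Rbm20 were named after their values were seen.

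**Figure D5:**
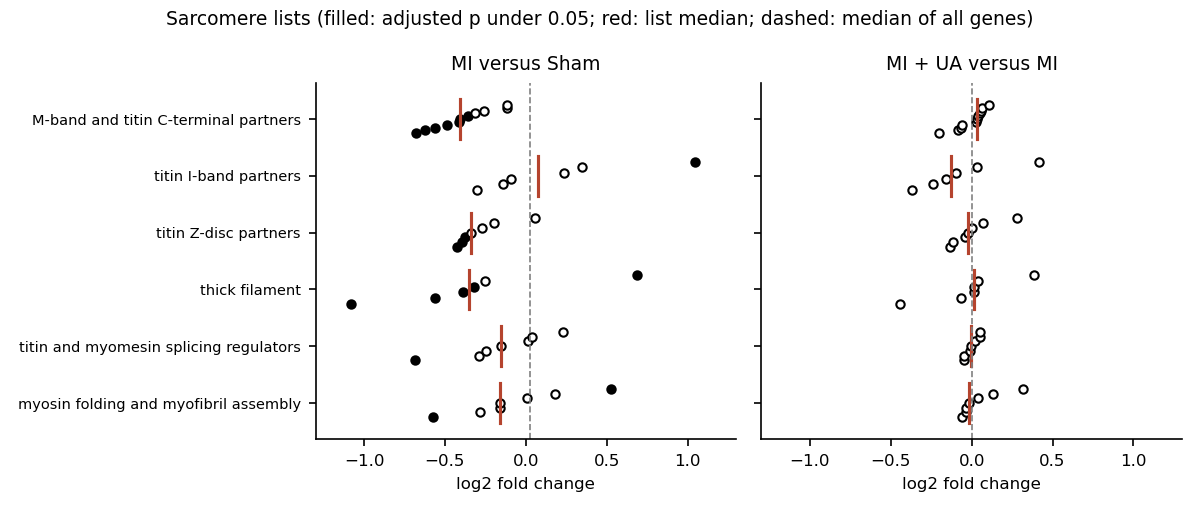
Log2 fold changes (horizontal axes) of the genes of 6 sarcomere lists in MI versus Sham and in MI + UA versus MI; filled points passed the edgeR test at an adjusted p under 0.05, red bars are list medians and the dashed line is the median of all genes. In MI versus Sham 16 genes are filled on the lower side and 3 on the higher side, and no point is filled in MI + UA versus MI.

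The genes whose log2 CPM was most like that of each member over the 12 rats were sought among 10930 genes. The 5 nearest to Ttn included Ecpas, Tnni3k, AABR07007032.1 and Myom1, with Pearson's r from 0.97 to 0.98. Those of Myom1 included Tnni3k, Ryr2, Actn2 and Nfe2l1, at 0.98 each. Obsl1 had Prdx2, Tmem70, Rnf10, Sgca and AC133270.1 (0.96 to 0.97), and those of Nrap included Miga2, Dysf, Phactr2 and Ppp1r12b (0.91 to 0.96). For Myom2 the values were lower, from 0.87 to 0.91, with Rnf123, Pelo, Insr, Ccdc170 and Ppp1r37.

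For Myom3 the 10 nearest were Pstk, Kcnj3, Nol11, Atat1, Calcoco1, Fsd2, Nr3c2, Mrps14, Limd1 and Ano5, with r from 0.89 to 0.93. After the group means were removed none of these 10 was among the 10 nearest, which were led by Ccrl2, Angel1 and Ube4a. Ttn and Myom1 were each among the 5 nearest of the other with the group means removed. Myom3 was selected on its group differences and has far fewer reads, so its neighbours cannot be set against theirs. Ranked by Spearman's rho, 8 of the 35 neighbours stayed among the nearest, among them Kcnj3, Nol11, Atat1 and Calcoco1 for Myom3.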

How the data were processed

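Strand-specific libraries from 12 rat hearts were sequenced by the authors (the protocol names ribosomal RNA depletion, whereas the molecule is labelled polyA RNA), aligned with STAR 2.6.1c to mRatBN7.2 and counted per gene with htseq-count, per the labels and the study's methods. The deposited table holds raw counts per gene, 1 column per rat. The 5 summary lines of unassigned reads were left out of library sizes and tests. A further library that the study describes as excluded was not analysed here.

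Genes with at least 10 counts over the 12 rats were fitted with edgeR 4.0.16 (R 4.3.3) by glmQLFit and glmQLFTest with TMM scaling and the 3 groups fitted jointly, and p-values were adjusted over all genes by Benjamini-Hochberg; 95% intervals come from that fit. All members passed this filter. The scripts were tested on simulated data. There the MI versus Sham test recovered 14.9% of genes given a log2 change of 0.4 and 80.6% of those given a change of 1. Differences as small as most of those of the members were thus often missed. Within-library ratios used counts plus 0.5 and two-sided exact permutation tests over rats. DESeq2 1.42.0 served as an alternative, with other filters, scalings and leave-one-out fits. Replicates are separate rats, but no batch is given in the labels. Members and lists were chosen with earlier results of these data known. Named are the 6 members, the gene of each list with the largest rise and fall in MI versus Sham past an adjusted p of 0.05, any past it in MI + UA versus MI, and the nearest neighbours by Pearson's r (5 each, 10 for Myom3, among genes with a symbol and an average log2 CPM of at least 1); a few genes that these rules name are not reported here. Of the 48 list genes and of the markers, those without a row under their symbol were not analysed here.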

Additional observations from a re-analysis of the deposited data

Results flagged for a closer look

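In groups of 4 rats the lowest or highest value was set against the range of its group, and 5 of 81 groups examined stood apart by Dixon's criterion, which chance alone meets in about 1 of 20 groups. MI + UA rat 58 was lowest for Obsl1 in log2 CPM, with a gap of 0.901 of the group's range. Sham rat 12 was highest for the ratio of Nrap to Myom1 (gap 0.851) and lowest for the ratio of Myom2 to the cardiomyocyte markers (gap 0.913). MI rat 61 (gap 0.853) and MI + UA rat 58 (gap 0.886) had the lowest share of reads on genes in their groups.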

How the results depend on the processing

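No paired analysis was possible because each rat belongs to a single group and no rat number recurs. In MI versus Sham the same 3 members (Ttn, Myom1 and Obsl1) passed under all 7 other settings and all 12 fits that leave out a rat. Between MI + UA and Sham 4 passed under each of the 7 settings, and 1 to 4 in the fits that leave out a rat. Between MI + UA and MI no member passed in any of these fits. Over all genes edgeR then called 3 with no filter beyond 1 count, and 0 to 1 in the fits that leave out a rat (1 without MI rat 36). With rat 66 counted in MI, Ttn in MI + UA versus MI was -0.11. For the same comparison, leaving out 1 rat gave log2 fold changes between -0.030 and 0.14 for Ttn, between -0.096 and 0.029 for Myom1, between -0.17 and 0.039 for Myom2 and between -0.019 and 0.11 for Obsl1. The cause of these sign changes was not tested. For Nrap, whose sign did not change, the range was -0.13 to -0.020.

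Relative to the summed cardiomyocyte markers, log2 differences in MI versus Sham were 0.066 for Ttn, 0.13 for Myom1, 0.30 for Myom2, 0.086 for Obsl1 and 0.28 for Nrap. Between MI + UA and Sham they were 0.049, 0.016, 0.13, 0.030 and 0.10 in the same order, and in MI + UA versus MI they were -0.017 for Ttn and -0.056 for Obsl1. With Myh6 left out of that sum, MI versus Sham gave 0.014 for Myom1, 0.18 for Myom2 and 0.16 for Nrap, MI + UA versus Sham gave 0.066 for Myom2 and 0.039 for Nrap, and MI + UA versus MI gave -0.0028 for Obsl1. With rat 66 also counted in MI, the ratio to all markers was -0.0010 for Ttn and -0.0061 for Myom1 in MI + UA versus Sham and 0.017 for Obsl1 in MI + UA versus MI. Without Myh6 in the sum it was then -0.060 for Ttn and 0.050 for Obsl1 in MI + UA versus MI and 0.00035 for Obsl1 in MI + UA versus Sham. The cause was not tested. The settings without Myh6, and the marker ratios with rat 66 counted in MI, were added after seeing the data. Leaving out 1 rat moved the difference in the ratio of Myom2 to Myom1 between 0.052 and 0.23 in MI versus Sham. It ran between -0.19 and 0.031 in MI + UA versus MI and between -0.025 and 0.20 in MI + UA versus Sham. For the ratio of Obsl1 to Myom1 it ran between -0.088 and 0.0025 in MI versus Sham and between -0.035 and 0.074 in MI + UA versus Sham. By Spearman's rho 8 of the 35 neighbours were kept. Myom3 rests on 9 to 109 reads per library, so its values carry more counting error than those of the other members.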
